A study of Macaca mulatta with 12 samples.

Results

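Of the 23993 gene identifiers counted in rhesus macaque liver, 105 carry a symbol of an H/ACA box small nucleolar RNA (SNORA) or of a small Cajal body RNA (SCARNA), and these 105 RNAs are described here. They were taken by symbol alone, as every SNORA or SCARNA symbol followed by a digit. No measured value entered this rule, but it was set with earlier results of these data known. There were 93 SNORA and 12 SCARNA identifiers with 92 different symbols, and identifiers that share a symbol were kept apart. In the deposited coordinates (build Mmul_8.0.1, where a start may differ by 1 base) the RNAs lie on 20 chromosomes and span 98 to 330 bases, with a median of 134.

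The 12 liver biopsy libraries came from 6 male macaques of about 4.6 years, each biopsied at baseline, before any ethanol of the study, and again post-induction. All 6 animals took the same ethanol during the 90-day induction: 0.5, 1 and 1.5 g/kg/day for 30 days each. The classes were assigned from later drinking, over 12 months of free access, when very heavy drinkers (VHD) took 4.0 g/kg/day and light drinkers (LD) 1.5 g/kg/day. The 4 groups of 3 libraries were therefore VHD post-induction, VHD baseline, LD post-induction and LD baseline, and neither class had begun its free access at either biopsy. Libraries were combined mRNA and miRNA preparations from 500 ng of RNA (RIN above 8.5), read for 76 bases.

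H/ACA RNAs fold into a pair of hairpins and work inside a small protein complex whose enzyme, dyskerin (DKC1), turns chosen uridines into pseudouridine. The RNA supplies the address: an unpaired pocket in a hairpin pairs with the target on both sides of the uridine. SNORA RNAs sit in the nucleolus and mostly address ribosomal RNA, while SCARNA RNAs are held in Cajal bodies, nuclear bodies where the small nuclear RNAs of the spliceosome are modified. Most are not made from genes of their own but are cut from introns of host genes, many of which encode ribosomal proteins and translation factors. Sequences of these RNAs were not used here.

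The RNAs together took 223847 of the counts, or 5796 to 39840 per library, in libraries of 5970033 to 25060718 transcript counts. Counts are expected counts per identifier, and 98 of the 105 RNAs had whole numbers in every library. A count was present in all 12 libraries for 80 RNAs, and 26 RNAs had under 100 counts in all. After the filter on low counts 82 remained for tests, 72 SNORA and 10 SCARNA. The least counted RNA that was tested had 70 counts over the 12 libraries and the most counted one that was not had 83; the 23 untested RNAs, SCARNA14 and SCARNA17 among them, had 10 to 83. The summed CPM (counts scaled to a common library total) of 6 hepatocyte markers, among them ALB and APOB, was 142300 to 212600 in VHD post-induction, 130000 to 245300 in VHD baseline, 175200 to 249200 in LD post-induction and 209000 to 243400 in LD baseline. T and NK cell markers (CD3E and NKG7) summed to 1.76 to 3.63 CPM over all libraries. None of these markers, and none of 3 cholangiocyte, 5 macrophage, 3 endothelial and 4 stellate cell or fibroblast markers, passed the test of edgeR in any comparison.

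Of the 105 RNAs, 75 lie wholly inside a gene with a symbol on the same strand, in 61 different host genes, and 30 do not. Levels were far from even. Per kilobase, the top RNA was SNORA64 (chr20:1947869-1948003, minus strand), inside RPS2, a gene of a small-subunit ribosomal protein, with 2523 CPM per kb on average. SNORA2B, inside the chromatin-complex gene KANSL2, followed with 946.5 CPM per kb and SNORA54, inside the histone chaperone gene NAP1L4, with 688 CPM per kb. SNORA29, inside the chaperonin gene TCP1, averaged 572.3 CPM per kb and SNORA3A, inside the ribosomal protein gene RPL27A, 428 CPM per kb. The next in order were SNORA62 of 151 bases in RPSA, SNORA18 in TAF1D, SNORA48 in EIF4A1, SNORA20 in TCP1 and SNORA4 in EIF4A2, at 289.3, 257.4, 245.5, 195.4 and 144.7 CPM per kb. SNORA64 alone made up 27.3% of all counts of the 105 RNAs, with SNORA2B 37.4%, and the 10 RNAs with the most CPM per kb 69.6%. The median RNA had 529 counts over the 12 libraries and averaged 2.82 CPM.

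The summed level of the 105 RNAs was 799.9, 721.7 and 1797 CPM in VHD post-induction animals 1, 2 and 3, against 1048, 1208 and 1266 CPM in the same animals at baseline. In LD it was 1082, 1414 and 1766 CPM post-induction, against 1233, 1182 and 1047 CPM at baseline. The baseline libraries lay close together and the post-induction libraries spread widely: the means were 1106 ± 599.5 CPM in VHD post-induction, 1174 ± 112.9 CPM in VHD baseline, 1421 ± 342 CPM in LD post-induction and 1154 ± 96.1 CPM in LD baseline (SD, n = 3 each). In both classes the highest post-induction library was animal 3, and the groups overlapped in both. In a bulk sample, fewer cells of a type and less RNA per cell cannot be told apart. The difference of the summed level was 0.11 on the log2 scale for post-induction against baseline, averaged over the classes, and -0.21 without VHD post-induction 3. For VHD against LD at baseline it was 0.03 on the log2 scale. C/D box RNAs, the methylation guides, were the far larger small nucleolar RNA class, with 142 identifiers that summed to 58340 to 173700 CPM. Their mean was 89710 ± 51380 CPM in VHD post-induction and 81790 ± 5807 CPM in VHD baseline (SD, n = 3 each). For LD the mean was 123000 ± 51080 CPM post-induction and 100300 ± 32480 CPM at baseline. Their highest libraries were likewise LD post-induction 3 (173700 CPM) and VHD post-induction 3 (149000 CPM), with LD baseline 3 next (137500 CPM).

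**Figure D1:**
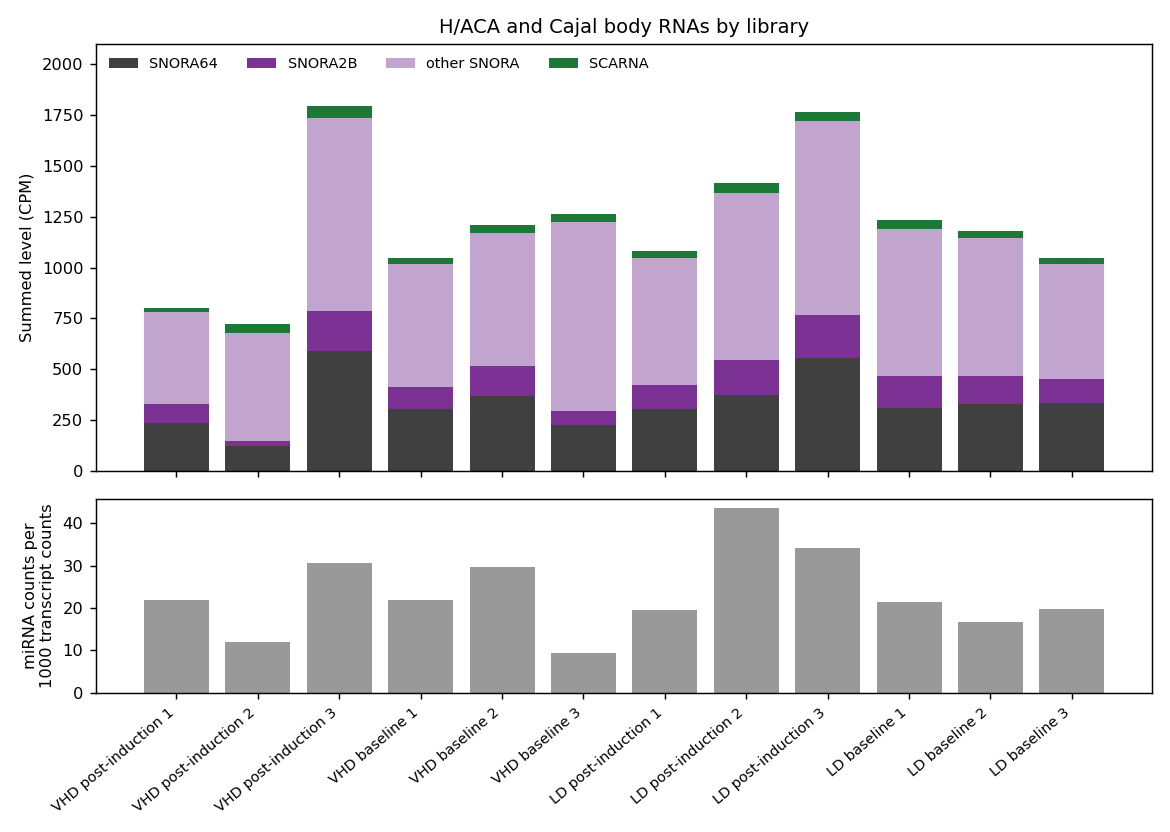
Upper panel, stacked bars of the summed level of the 105 RNAs in CPM for each of the 12 libraries, split into SNORA64, SNORA2B, the other SNORA and the SCARNA; lower panel, miRNA counts per 1000 transcript counts in the same libraries. The highest bars are VHD post-induction 3 (1797 CPM) and LD post-induction 3 (1766 CPM), and the SNORA64 and SNORA2B segments are thin in VHD post-induction 2 and VHD baseline 3.

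The mix of RNAs set apart a pair of libraries, VHD post-induction 2 and VHD baseline 3, which come from different animals. The pair also stood apart for many genes outside the 105 RNAs, as given below. SNORA64 made up 16.9% of the counts of the 105 RNAs in VHD post-induction 2 (exact 95% interval 16.3 to 17.6%) and 17.9% in VHD baseline 3 (17.5 to 18.3%), against 25.2 to 32.9% in the other 10 libraries. SNORA2B made up 3.58% and 5.51% in these libraries, against 10.3 to 12.7% in the other 10. The same libraries had the lowest miRNA content, 11.9 and 9.39 miRNA counts per 1000 transcript counts, against 16.6 to 43.5 in the others. What part miRNA content has in the mix was not tested. Both had been set apart in earlier work on these data, and all intervals here cover counting error only.

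A ratio of the counts of a pair of RNAs within a library does not depend on depth or scaling, and pairs that lie in 1 host gene were compared this way. In KANSL2, the ratio of SNORA2B counts to SNORA2A counts was 2.99 in VHD post-induction 2 (exact 95% interval 2.49 to 3.60) and 3.90 in VHD baseline 3 (3.53 to 4.32). In the other 10 libraries it was 15.8 to 30.4. In EIF4A1, which encodes an RNA helicase of translation initiation, SNORA48 over SNORA67 was 0.92 and 0.88 in these libraries, against 3.06 to 4.83 in the other 10. The shift was therefore not in 1 host only. In TCP1, SNORA29 over SNORA20 was 1.97 and 1.96, against 3.11 to 4.70. In EIF4A2, SNORA4 over SNORA81 went the other way, with 18.5 (11.7 to 33.1, from counts rounded to whole numbers) and 13.4 (10.5 to 17.3), against 1.60 to 2.91. SNORA81 had 17 counts in VHD post-induction 2 and 69 in VHD baseline 3, while SNORA4 had 324 and 922.

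**Figure D2:**
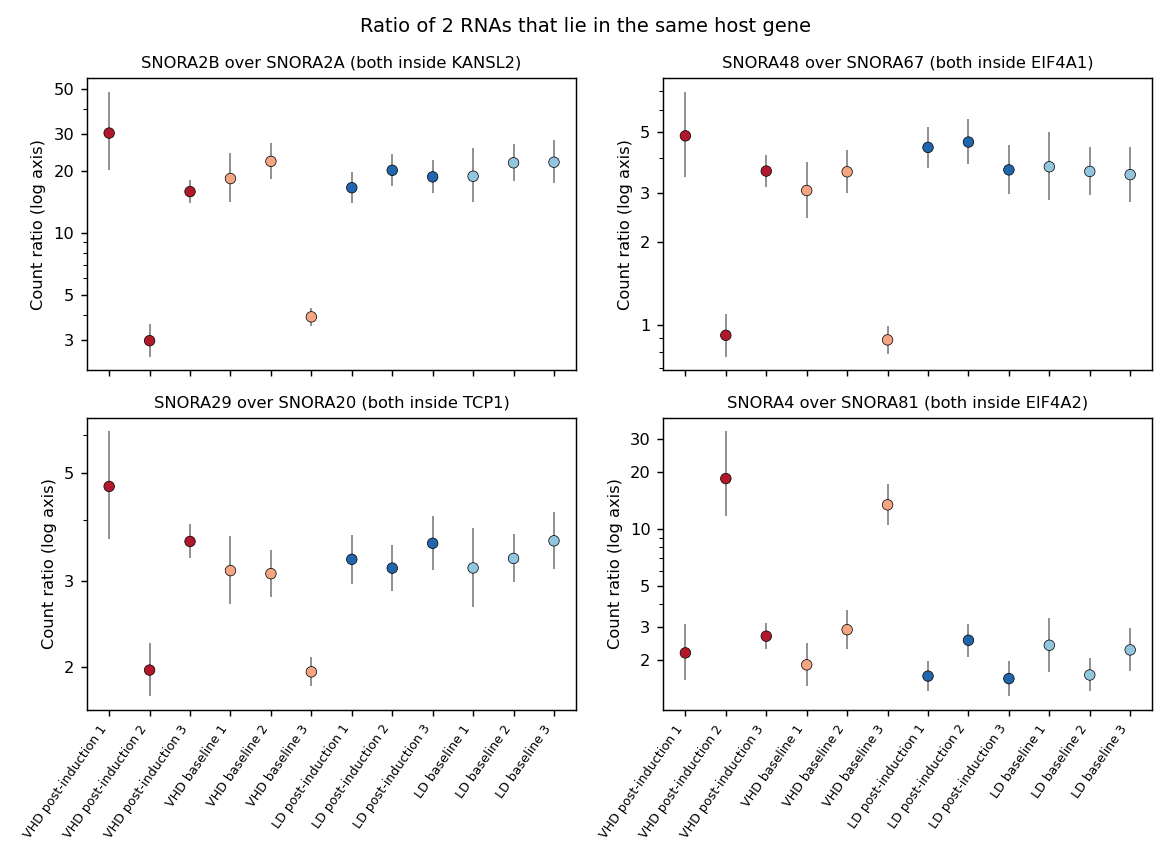
Ratio of the counts of 2 RNAs that lie in the same host gene, on a log axis, for the 12 libraries; points are ratios, coloured by group as named on the horizontal axis, and bars are exact 95% binomial intervals. In all 4 hosts VHD post-induction 2 and VHD baseline 3 lie away from the other 10 libraries, below them in KANSL2, EIF4A1 and TCP1 and above them in EIF4A2.

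There were 10 host genes with more than 1 of the RNAs, which gave 19 pairs, and in 9 pairs both RNAs had at least 5 counts in every library. In 8 of these 9 pairs the ratio in both libraries lay beyond the same side of the other 10. Among 2136 pairs of RNAs without a shared host, the same was seen in 782, or 36.6%. The pairs share members, and this count was chosen after the values had been seen. The other pairs outside were SNORA50A over SNORA46 in CNOT1, with 1.18 and 1.87 against 2.53 to 8.46, the remaining EIF4A2 pairs with SNORA63, and the SNORA62 pair in RPSA, with 15.82 and 25.7 against 6.24 to 15.75. The pair that did not stand apart was SNORA5C over SNORA5A in TBRG4, with 7.56 and 2.25 against 0.60 to 2.66.

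By level, 9 of the 82 tested RNAs were lower in both libraries than in each of the other 10, against a background of 7.77% of all 18373 genes tested, and 6 were higher in both, against a background of 8.53%. The lower ones were SNORA64, SNORA58, SNORA2B, SNORA41, SNORA27, SNORA66, SNORA24B, SNORA48 and SNORA81. The higher ones were SNORA67, SNORA33, SNORA46, SNORA73 of 205 bases, SNORA5C and SCARNA12. By the background shares, the separation of this pair of libraries was not confined to the RNAs described here. SNORA73 is best known for a part in the cleavage of precursor ribosomal RNA rather than as a modification guide.

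**Figure D3:**
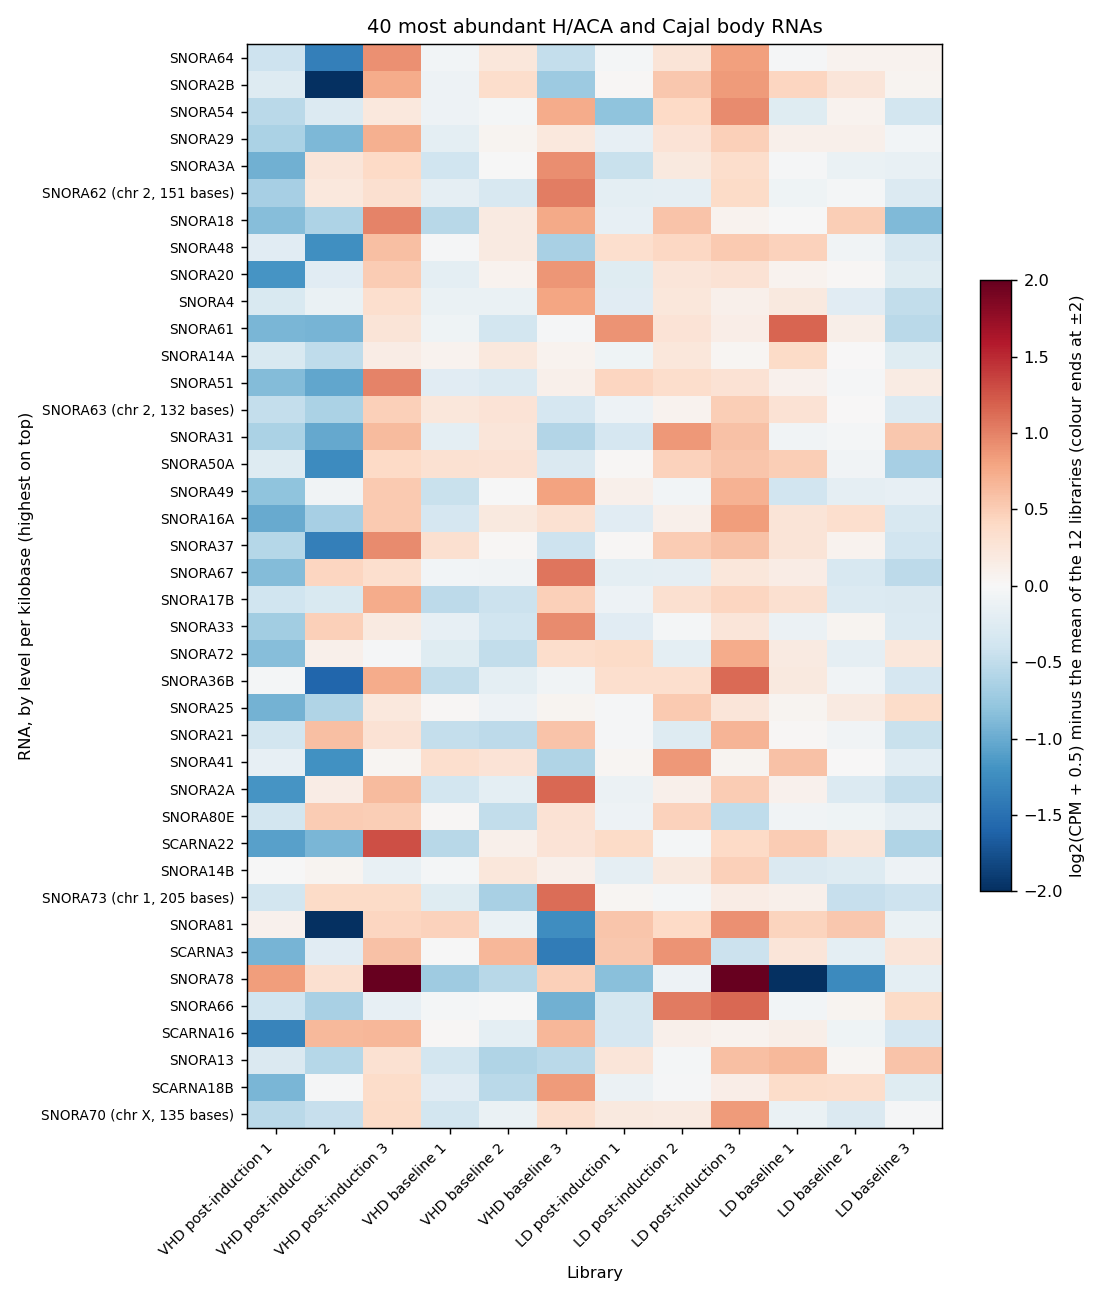
Levels of the 40 tested RNAs with the most CPM per kb in the 12 libraries, as log2(CPM + 0.5) minus the RNA's own mean over the libraries; red is above and blue below the mean. Rows such as SNORA2B (below) and SNORA3A (above) lie on opposite sides of their means in VHD post-induction 2 and VHD baseline 3, while VHD post-induction 3 and LD post-induction 3 are above the mean for most rows.

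The first question was whether the 90 days of ethanol were followed by a change, over both classes. None of the 82 tested RNAs passed the threshold (edgeR's quasi-likelihood test, Benjamini-Hochberg adjusted p under 0.05), where 49 of the 18373 genes did, a background of 0.267%. With a term for the animal 4 genes passed and again none of the 82. At an unadjusted p under 0.05 there were 2 RNAs, both higher, against a background of 3.76% higher, and DESeq2 called none of the 79 to which it gave an adjusted p, with a background of 1.64%. The log2 fold change was above 0 in 60 of the 82 (73.2%), against 57.4% of all genes, and its median was 0.14, against 0.07. Without VHD post-induction 3 the median of the RNAs was -0.13, so this library set its sign.

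SNORA78 had the smallest p in this comparison. It is an H/ACA RNA that in human is cut from a non-coding host gene, SNHG9, and here lies near SNORA64 on the opposite strand (chr20:1950017-1950144, plus strand) with no host that has a symbol. Its level was 5.52, 3.72 and 14.4 CPM in VHD post-induction animals 1, 2 and 3, against 1.55, 1.79 and 4.18 CPM in VHD baseline. In LD it was 1.38, 2.65 and 15.1 CPM post-induction, against 0.17, 0.89 and 2.44 CPM at baseline. Every animal was higher post-induction, 6 of 6, yet the groups overlapped in both classes, since animal 3 was the highest of its group at each biopsy. The lowest value rests on 1 count in LD baseline 1 and the highest on 158 counts in LD post-induction 3. The log2 fold change was 1.98 ± 0.64 (SE), with an adjusted p of 0.344 by edgeR's quasi-likelihood test. With a term for the animal it was 1.90 with an adjusted p of 0.0892. It was 1.15 without LD post-induction 3, and adjusted p ran from 0.0561 to 0.88 over 18 other settings. SNORA78 was the only 1 of the 82 that was higher in 6 of 6 animals, against a background of 2.67% of all genes, and none was lower in 6 of 6, against 3.74%. These counts were made after the values had been seen. SNORA64, its neighbour, was higher in 3 of 6 animals, with a log2 fold change of 0.21 ± 0.34.

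SCARNA1, which lies in the syntaxin gene STX12, came second by p. It had 2.90, 1.21 and 4.83 CPM in VHD post-induction, against 2.49, 1.72 and 1.11 CPM in VHD baseline, and 1.01, 2.26 and 3.83 CPM in LD post-induction, against 0.69, 1.08 and 1.15 CPM in LD baseline. It was higher in 5 of 6 animals, the exception being VHD animal 2, and the groups overlapped in both classes. The log2 fold change was 1.00 ± 0.42 with an adjusted p of 0.571 by edgeR's quasi-likelihood test, and that of its host STX12 was 0.25 ± 0.28. SNORA26 was the third, with 1.25 ± 0.79 on the log2 scale (adjusted p = 0.752, edgeR), from 81 counts over the 12 libraries. SNORA26 was at 0 in VHD baseline 1 and LD baseline 1. SNORA11, inside MAGED2, with 70 counts in all, was as uneven: 1.24, 0.44 and 0 CPM in VHD post-induction, against 0.62, 0.49 and 0.19 CPM in VHD baseline, and 1.17, 0.06 and 0.19 CPM in LD post-induction, against 1.56, 0 and 0 CPM in LD baseline.

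**Figure D4:**
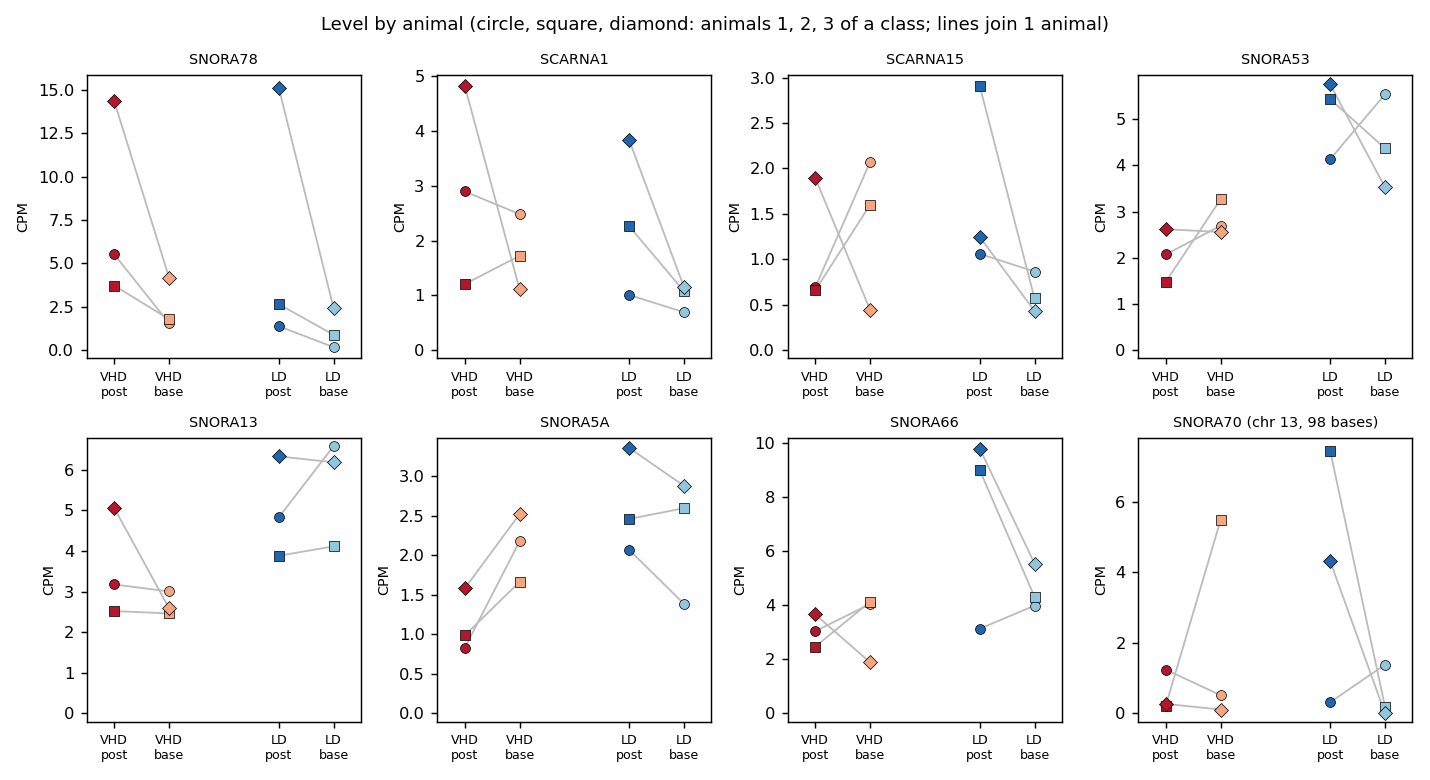
Level in CPM of 8 RNAs among those named by the smallest p in a comparison, by group and animal; lines join the biopsies of 1 animal, post-induction left of baseline. SNORA78 slopes down to baseline in all 6 animals, and the SNORA70 copy on chromosome 13 is high in 3 libraries of 3 animals only. SNORA53 is lower in every VHD library than in every LD library, a split whose share among all genes was not counted.

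Within LD the RNAs stood mostly above their baseline. Of the 82, 71 (86.6%) had a log2 fold change above 0, against 56.4% of all genes, with a median of 0.28, against 0.08. Over 18 other settings the median of the RNAs ran from 0.15 to 0.38. The LD animals did not all go this way. Post-induction, the summed level was lower in LD animal 1 (1082 against 1233 CPM) and higher in LD animals 2 and 3. None of the 82 passed the threshold in edgeR (background 0.0% of genes), and none of the 52 to which DESeq2 gave an adjusted p passed there (background 0.433%). At an unadjusted p under 0.05 edgeR gave 3, all higher, against a background of 3.33%. They were SNORA78 (2.33 ± 0.93 on the log2 scale), SCARNA15 (1.54 ± 0.70) and the SNORA70 copy of 98 bases on chromosome 13 (3.30 ± 1.52), each with an adjusted p of 0.856. All 3 LD post-induction libraries lay above all 3 LD baseline libraries for 6 RNAs, 7.32% against a background of 5.5%: SNORA51, SNORA49, SNORA36B, SCARNA15, the SNORA70 copy on chromosome X and a SNORA63 copy of 131 bases. SNORA55 was the only 1 that lay below, against a background of 6.17%. SNORA36B, inside RAB3GAP2, had 10.6, 10.7 and 19.0 CPM in LD post-induction, against 9.69, 7.97 and 6.54 CPM in LD baseline. This made 0.74 ± 0.50 on the log2 scale.

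Within VHD the picture depended on single libraries. Of the 82, 32 (39.0%) had a log2 fold change above 0, against 52.4% of all genes, with a median of -0.08, against 0.03. Without VHD post-induction 2 and VHD baseline 3 it was above 0 in 59 of 83, with a median of 0.19. Leaving out 1 post-induction library of VHD put the median at 0.06 (animal 1), 0.04 (animal 2) or -0.55 (animal 3). None of the 82 passed the threshold in edgeR (background 0.0%), none of the 74 with an adjusted p from DESeq2 passed there (background 0.349%), and none had an unadjusted p under 0.05, against a background of 3.44%. SNORA5A, inside TBRG4, a gene of mitochondrial RNA metabolism, had the smallest p, with 0.83, 0.99 and 1.58 CPM in VHD post-induction, against 2.17, 1.66 and 2.52 CPM in VHD baseline. All 3 post-induction values lay below all 3 baseline values, as they did for SNORA9B, which makes 2 RNAs or 2.44% against a background of 3.89%, and no RNA lay above, against 2.8%. The log2 fold change was -0.87 ± 0.44 for SNORA5A and -0.57 ± 0.33 for SNORA9B, each with an adjusted p of 1.0 by edgeR's quasi-likelihood test. SNORA78 came between them with 1.63 ± 0.87.

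The difference of the responses, VHD minus LD, was above 0 in 15 of the 82 RNAs (18.3%), against 46.2% of all genes. Its median was -0.37, against -0.05, and -0.18 without VHD post-induction 2 and VHD baseline 3. In the same comparison 5 of 5 macrophage markers were below 0 (median -0.70). Of these 5, 1 had an unadjusted p under 0.05, against 239 of all 18373 genes. Both T and NK cell markers were below 0 (median -0.79), and 6 of 6 hepatocyte markers were above 0 (median 0.13). Above 0 were 1 of 3 cholangiocyte (median -0.085), 1 of 3 endothelial (median -0.167) and 2 of 4 stellate cell or fibroblast markers (median -0.11). For VHD against LD at baseline 5 of 5 macrophage markers were above 0 (median 0.725). The macrophage markers summed to 45.1 to 86.7 CPM in VHD post-induction, against 73.7 to 93.8 CPM in VHD baseline, and to 36.3 to 85.2 CPM in LD post-induction, against 39.0 to 59.0 CPM in LD baseline. None of these markers was at 0 in a library, and their part in the result was not tested. None of the 82 RNAs passed the threshold in edgeR (background 0.0%) or DESeq2 (background 0.00546%), and 1 had an unadjusted p under 0.05, the SNORA70 copy of 98 bases, against a background of 1.09% lower. Next by p were SCARNA15 (-1.79 ± 0.96 on the log2 scale) and SNORA5A (-1.04 ± 0.61), each with an adjusted p of 1.0 by edgeR's quasi-likelihood test. SCARNA15 had 0.69, 0.66 and 1.90 CPM in VHD post-induction, against 2.07, 1.60 and 0.44 CPM in VHD baseline, so VHD animals 1 and 2 were lower and VHD animal 3 higher post-induction. In LD it had 1.06, 2.91 and 1.25 CPM post-induction, against 0.87, 0.57 and 0.43 CPM at baseline.

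That SNORA70 copy (chr13:62238950-62239048, minus strand) lies in USP34, a deubiquitinase gene, and its values followed neither biopsy nor class. It had 115 counts in LD post-induction 2, 89 in VHD baseline 2 and 45 in LD post-induction 3, and 9 or fewer in each of the other 9 libraries, with none in LD baseline 3. Another copy of 126 bases on chromosome 16, which failed the filter, had 24, 7 and 7 counts in the same 3 libraries and 2 or fewer in the others. SNORA70 stands on 7 identifiers, whose totals run from 11 to 786 counts, and near-identical copies can share reads, so the level of a single copy is uncertain. The same holds for SNORA63 and SNORA73 with 3 identifiers each, SNORA74 with 3 and SNORA62 with 2.

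At baseline, before ethanol, VHD and LD could be compared to ask what preceded the drinking. None of the 82 RNAs passed the threshold in edgeR, where 1 gene did (background 0.00544%), or in DESeq2 (background 0.00546%). Of the 82, 42 (51.2%) had a log2 fold change above 0, against 56.6% of all genes, with a median of 0.02, against 0.07. At an unadjusted p under 0.05 there was 1, SNORA13, lower in VHD, against a background of 0.425% lower. SNORA13, an H/ACA RNA with no symbol-bearing host here, had 3.00, 2.46 and 2.59 CPM in VHD baseline, against 6.58, 4.11 and 6.18 CPM in LD baseline. These groups did not overlap, and the log2 fold change was -1.06 ± 0.38 with an adjusted p of 1.0 by edgeR's quasi-likelihood test. Post-induction SNORA13 had 3.17, 2.52 and 5.05 CPM in VHD, against 4.82, 3.88 and 6.33 CPM in LD, where the groups overlapped. Groups at baseline also did not overlap for SNORA53 and SNORA55, both lower in VHD, which makes 3.66% with SNORA13 against a background of 3.08%, and for SNORA14B, higher in VHD, 1.22% against 4.13%. SNORA84 was the third by p with 1.02 ± 0.58 on the log2 scale, and 0.46 with the pair of libraries that stood apart left out.

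Post-induction, most of the RNAs stood lower in VHD than in LD. Of the 82, 20 (24.4%) had a log2 fold change above 0, against 49.6% of all genes, with a median of -0.27, against about 0.00 for all genes (-0.005). The median was -0.13 when the pair of libraries that stood apart was left out. With only VHD animal 1 left out of the post-induction group it was -0.16, and with only VHD animal 3 left out -0.74. None passed the threshold in edgeR (background 0.0%) or DESeq2 (background 0.00546%). At an unadjusted p under 0.05 there were 4, all lower in VHD, against a background of 0.996% lower: SNORA53, SNORA66, SNORA5A and SNORA9B. The VHD libraries all lay below the LD libraries for SNORA53, SNORA5A, SNORA9B and SNORA41, 4.88% against a background of 2.16%, and for none did they all lie above, against 2.67%.

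SNORA53 is inside SLC25A3, the gene of the mitochondrial phosphate carrier, and at 246 bases is the longest SNORA here. It had 2.07, 1.48 and 2.62 CPM in VHD post-induction, against 4.13, 5.43 and 5.75 CPM in LD post-induction. At baseline it had 2.69, 3.26 and 2.56 CPM in VHD, against 5.54, 4.37 and 3.52 CPM in LD. All 6 VHD libraries were thus below all 6 LD libraries, from 3 animals in each class, with the nearest values at 3.26 and 3.52 CPM. The share of all genes with such a split was not counted, so how common it is here is not known. The log2 fold change was -1.30 ± 0.36 post-induction (adjusted p = 0.999 by edgeR's quasi-likelihood test) and -0.65 ± 0.36 at baseline. Over 18 other settings the post-induction value ran from -1.53 to -1.10. That of its host SLC25A3 post-induction was 0.10 ± 0.34.

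SNORA66, inside RPL5, had 3.04, 2.46 and 3.65 CPM in VHD post-induction, against 3.13, 8.99 and 9.78 CPM in LD post-induction. The groups overlapped, because LD post-induction 1 was as low as VHD, and the log2 fold change was -1.25 ± 0.46 (adjusted p = 0.999, edgeR). SNORA5A was the third, with -1.17 ± 0.44. The host genes RPL5 and TBRG4 were at 0.21 ± 0.39 and 0.32 ± 0.42 in the same comparison.

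**Figure D5:**
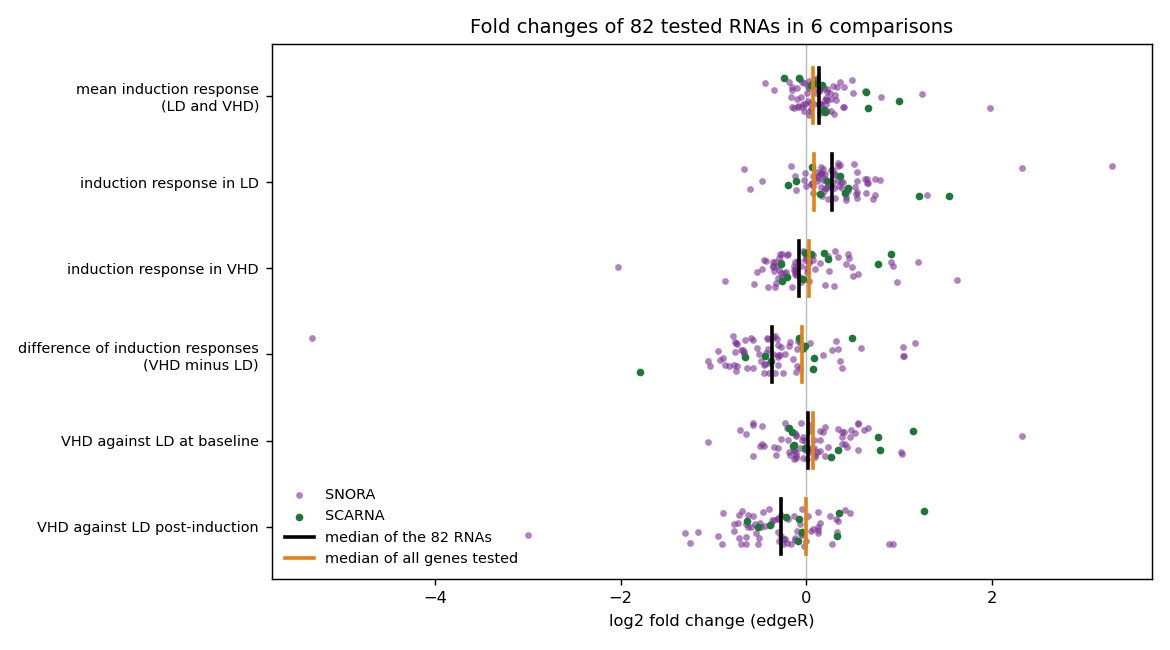
Log2 fold change of each of the 82 tested RNAs (points, SNORA and SCARNA by colour, spread vertically for sight) in the 6 comparisons, with the median of the 82 RNAs and of all 18373 genes as vertical lines. The median of the RNAs lies right of that of all genes in LD (0.28 against 0.08) and left of it in VHD against LD post-induction (-0.27 against about 0.00), and none of the points passed the threshold.

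The 10 tested SCARNA were scarce beside the SNORA. Their summed level, with the 2 untested ones, was 41.1 ± 20.8 CPM in VHD post-induction, 38.0 ± 6.52 CPM in VHD baseline, 42.0 ± 4.77 CPM in LD post-induction and 35.7 ± 7.15 CPM in LD baseline (SD, n = 3 each). SCARNA22, inside the histone methyltransferase gene NSD2, had the highest level per length with 57.5 CPM per kb, followed by SCARNA3 with 40.2 and SCARNA16 with 31.9 CPM per kb. SCARNA22 had 2.76, 3.18 and 16.4 CPM in VHD post-induction, against 4.25, 6.96 and 7.92 CPM in VHD baseline, and its LD libraries were between 4.10 and 9.34 CPM. Its level in VHD post-induction was thus lower than at baseline in animals 1 and 2 and higher in animal 3. SCARNA12, inside PHB2, was the most uneven SCARNA, with 12.0 CPM in VHD post-induction 2 and 4.59 CPM in VHD baseline 3, against 0.79 to 3.30 CPM in the other 10 libraries. Its response in VHD was 0.91 ± 0.79 on the log2 scale and -0.16 without these libraries. SCARNA10, at 330 bases the longest of the 105 and a composite of an H/ACA and a C/D box part, had a mean response of 0.20 ± 0.32. Those of SCARNA13, SCARNA18, SCARNA18B, SCARNA3, SCARNA16, SCARNA15 and SCARNA22 lay between -0.24 and 0.64 on the log2 scale.

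The genes of proteins that build and handle these RNAs gave no call either, and neither did the host genes. None of 8 core and assembly genes and 8 Cajal body and guide handling genes passed the threshold of edgeR in any comparison. The same held for 6 genes of 3′ end maturation and 61 host genes, over the 6 comparisons. In the mean response 7 of 8 core and assembly genes were below 0 (median -0.30, against 0.07 for all genes), and 1 of the 8 had an unadjusted p under 0.05 in either direction, against a background of 7.91% of all genes. GAR1, a core protein of the complex, was at -1.10 ± 0.38 (adjusted p = 0.416, edgeR), the enzyme DKC1 at -0.55 ± 0.30 and SHQ1, an assembly factor of DKC1, at 0.58 ± 0.49. GAR1 and SHQ1 were scarce, at 0.38 to 1.66 and 0.22 to 2.15 CPM over the 12 libraries. Of the Cajal body and guide handling genes 7 of 8 were below 0 (median -0.50), and 3 of the 8 had an unadjusted p under 0.05, against the same 7.91%. NOLC1, a chaperone of small nucleolar RNPs, was at -1.04 ± 0.23 (adjusted p = 0.101, edgeR), SMN1 at -0.85 ± 0.30 and USPL1 at 0.59 ± 0.25. WRAP53, which brings SCARNA RNAs to Cajal bodies, was at -0.16 ± 0.26. Of the maturation genes 5 of 6 were below 0 (median -0.29). An unadjusted p under 0.05 was found for 1 of the 6, against the same 7.91%. PARN, which trims the 3′ ends, was at -0.05 ± 0.28, and TENT4B at 0.44 ± 0.39. DIS3, of the same list, averaged 11.7 CPM in VHD post-induction, against 19.8 CPM in VHD baseline. In LD it averaged 12.9 CPM post-induction, against 20.2 CPM at baseline. The RNAs themselves had a median of 0.14 in the same comparison.

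Host genes had a median mean response of -0.05, with 25 of 61 above 0. An unadjusted p under 0.05 was found for 6 of the 61, near the 7.91% of all genes. Of 60 pairs of a tested RNA and its host, 28 stood on opposite sides of 0 in the mean response and 32 on the same side. In 23 of the 28 the RNA was above 0 and the host below. No share for unrelated pairs is given here, and 60 of the 82 RNAs were above 0 against 25 of the 61 hosts. NOP56 was at -1.03 ± 0.26 (adjusted p = 0.162, edgeR) and its SNORA51 at 0.22 ± 0.33. EIF4A1 was at -0.91 ± 0.28 (adjusted p = 0.312, edgeR) with its SNORA48 at 0.20 ± 0.30 and its SNORA67 at -0.09 ± 0.30. These pairs were chosen after their values had been seen, and no difference between host and RNA was tested. RPS2 was at 0.12 ± 0.30 and its SNORA64 at 0.21 ± 0.34. TERT, the protein of telomerase, whose RNA (TERC, not analysed here) is an H/ACA RNA, was at 0.49 ± 0.32 in the mean response (adjusted p = 0.764, edgeR). Its level was 4.42, 4.27 and 5.23 CPM in VHD post-induction, against 1.04, 2.03 and 3.07 CPM in VHD baseline, and 1.38, 2.26 and 2.59 CPM in LD post-induction, against 1.38, 2.59 and 2.88 CPM in LD baseline. All 3 VHD post-induction libraries lay above the other 9, but the share of all genes that did so was not counted. The log2 fold change of TERT was 1.15 ± 0.45 in VHD (adjusted p = 1.0, edgeR), -0.18 ± 0.46 in LD and 1.17 ± 0.45 for VHD against LD post-induction (adjusted p = 0.999, edgeR).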

How the data were processed

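Per the labels, combined mRNA and miRNA libraries of liver RNA were sequenced; the submitters' processing notes list the build Mmul_8.0.1 and the tools Bowtie, BWA and Partek. Their versions, the annotation release and the strandedness of counting are not stated in the sources used here. The authors deposited expected counts per transcript. Without stated strandedness, reads of overlapping or antisense genes cannot be told apart. Transcripts were summed per Ensembl gene identifier and rounded. The miRNA table (deposited expected counts) served only for miRNA content.

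The 105 RNAs and all gene lists were chosen with earlier results of these data known. Named RNAs were the 10 with the most CPM per kb, the 3 with the smallest p in each comparison, every tested SCARNA, the 5 with the widest spread between libraries (prior count 2; SNORA78, SNORA26, SCARNA12, SNORA11 and the SNORA70 copy of 98 bases) and symbols on more than 1 identifier. Others were named after their values were seen.

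In R 4.3.3, filterByExpr by group left 18373 genes, of which edgeR 4.0.16 tested 6 comparisons: TMM factors, a robust quasi-likelihood fit of 4 group means over 12 libraries, and Benjamini-Hochberg adjustment over all genes. The script was tested on simulated data. A standard error was the fold change over the square root of F. CPM used TMM-scaled totals. Intervals were exact binomial at 95%. Lengths are stop minus start. Alternatives were DESeq2 1.42.0, RLE factors, factors without small RNAs, no filter, a term for the animal, and leaving out libraries. No batch labels were given.

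Titles number the animals in both biopsies, so libraries of an animal are paired; the fit treats them as independent. Correlations of an animal's deviations from the group means were 0.445, -0.373 and 0.10 for VHD animals 1, 2 and 3 and 0.079, -0.014 and 0.402 for LD animals 1, 2 and 3.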

Additional observations from a re-analysis of the deposited data

How the results depend on the processing

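None of the RNAs was called in any of the 6 comparisons under any of the 18 alternatives, which include the replicate block (a term for the animal, or for the number in the titles between VHD and LD). DESeq2 gave an adjusted p to 79, 52 and 74 of the 82 RNAs in the mean, LD and VHD responses, and the others have no call there. The block gave SNORA78 a log2 fold change of 1.90 in the mean response and changed no call among the 82 RNAs. Over all genes, the mean response gave 49 calls, 266 with DESeq2, 4 with the block, 53 with factors computed without small RNA genes, 32 without VHD baseline 3 and VHD post-induction 2, and 0 to 71 without each library in turn. DESeq2 gave 50 calls in LD and 54 in VHD, where edgeR gave 0, and the other 3 comparisons had at most 1 call under each setting. The summed level had no test: the mean response was 0.11 on the log2 scale and ran from -0.21 without VHD post-induction 3 to 0.25 without VHD baseline 3 and VHD post-induction 2, and VHD against LD at baseline ran from -0.09 without VHD baseline 3 to 0.22 without scaling factors. Of the recomputed values, 88 moved by more than their standard error, all of single RNAs, and 3296 did not. Leaving out a library from a group of 3 leaves 2, and the spread is then shared over the 4 groups. Depth limits the 26 RNAs with under 100 counts in all, 23 of which failed the filter.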
